A study of Homo sapiens with 6 samples.

Results

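A set of 10 genes that the RAF-MEK-ERK kinase cascade switches on was followed in RNA enriched for new transcripts. The RNA came from A375 cells, a human melanoma line that carries an activating BRAF mutation. The 10 genes were taken by name, as ERK-dependent outputs and feedback inhibitors, and each was found by its Ensembl identifier among the 58243 identifiers counted. All 10 were among the 23884 genes that passed the filter on low counts. The cells had been stably transfected either with an empty vector (EV) or with a plasmid for HA-tagged human PRL3, a phosphatase encoded by PTP4A3, and both were kept in 100 µg/ml hygromycin B. Each group had 3 libraries, labelled EV B1, B2 and B3 and PRL3 B9, B10 and B11, and the sources used here do not say whether these came from separate cultures, or how many transfected clones each line holds, so the p-values measure the spread between these libraries. All cells received the uridine analogue 4-thiouridine (4sU) at 500 µM for 20 min, after which RNA made during the pulse was tagged with biotin, pulled down and sequenced.

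ERK signalling is kept in check by genes that ERK itself induces. DUSP4 and DUSP6 encode phosphatases that remove the activating phosphates from ERK, Sprouty proteins (SPRY2, SPRY4) interfere with signalling from receptor tyrosine kinases to RAS, and SPRED1 and SPRED2 recruit neurofibromin to the membrane to switch RAS off. ETV4 and ETV5 are ETS transcription factors of the PEA3 family that carry ERK signals to target genes, PHLDA1 is a pleckstrin homology-like protein, and CCND1 encodes cyclin D1, which drives cells into S phase. In melanoma with mutant BRAF these genes are used as a readout of MEK and ERK activity, because their transcripts fall within hours of MEK inhibition.

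Promoter windows were taken from RefSeq for GRCh38, each holding the 250 bases before an annotated start, and 6 of the 10 genes had at least 1 window. DUSP6, SPRY2 and SPRED1 are shown because all of them were higher in PRL3 cells and the window of their most upstream start lay outside every annotated exon of the gene. Capitals mark GC-box motifs, the letters GGGCGG read on either strand. The windows are at chr12:89352502-89352751 for DUSP6 and chr13:80341127-80341376 for SPRY2, both on the minus strand, and at chr15:38252586-38252835 for SPRED1, on the plus strand.
DUSP6: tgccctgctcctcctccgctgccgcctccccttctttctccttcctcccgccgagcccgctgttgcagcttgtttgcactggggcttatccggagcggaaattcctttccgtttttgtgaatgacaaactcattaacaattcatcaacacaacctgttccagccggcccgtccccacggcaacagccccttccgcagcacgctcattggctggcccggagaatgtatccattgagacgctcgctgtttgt
SPRY2: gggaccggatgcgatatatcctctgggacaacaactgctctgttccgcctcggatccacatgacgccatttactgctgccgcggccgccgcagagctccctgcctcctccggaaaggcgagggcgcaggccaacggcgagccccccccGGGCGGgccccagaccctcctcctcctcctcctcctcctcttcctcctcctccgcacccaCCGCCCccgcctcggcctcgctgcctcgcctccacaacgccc
SPRED1: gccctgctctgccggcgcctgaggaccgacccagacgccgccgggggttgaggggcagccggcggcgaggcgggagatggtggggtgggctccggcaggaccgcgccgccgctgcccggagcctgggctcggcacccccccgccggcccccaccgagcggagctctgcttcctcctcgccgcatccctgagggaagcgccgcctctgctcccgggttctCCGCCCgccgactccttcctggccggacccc
The ETS motif CCGGAAG, the AP-1 motif TGANTCA, the CRE motif TGACGTCA and the E-box CACGTG were found in 0 of the 9 windows of these 6 genes, on either strand. Among all 35116 windows of the same length, 8.52% held the ETS letters, 6.57% the AP-1 letters, 1.65% the CRE letters and 6.34% the E-box letters. GC-boxes were found in 4 of the 9 windows, and in 42.6% of all windows. A match is a run of letters and not a measured binding site, and the absence of these letters says nothing about the factors.

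The exons of genes held 36532207 to 57952035 counted reads in each library. Of the uniquely aligned reads, 28.7 to 41.1% in the EV and 62.8 to 69.1% in the PRL3 libraries lay outside the exons annotated on the strand counted (two-sided p = 0.1 by exact permutation, which 3 libraries against 3 cannot go below). These reads, which would include intronic ones, are not in the counts of any gene here. PTP4A3, the gene transfected, had 132, 176 and 307 counts in the EV libraries and 21687, 38659 and 20584 in the PRL3 libraries, so the labels hold for it. The tested markers of melanoma cells were read in all libraries, and 7 of 10 were lower in PRL3 cells, beside 31.6% of all protein-coding genes tested. Of 4 tested melanocyte markers 2 were lower in PRL3 cells, SOX10 (log2 fold change -0.85) and S100B (-1.38). Of 6 markers of dedifferentiated melanoma 5 were lower, SOX9 (-2.08), NES (-1.70), NGFR (-1.69), VIM (-0.91) and AXL (-0.40), with 0 higher in either list. MITF (0.36, edgeR adjusted p = 0.0738), PMEL (-0.33) and EGFR (0.09) did not pass the test. PMEL was read at a low level, with 26 to 61 counts in any library. For MITF every PRL3 library lay above every EV library. TYR, MLANA, DCT and TYRP1, genes of pigment synthesis and of the melanosome, had at most 20 counts in any library and were not tested. PTPRC, CD3E, PECAM1 and CDH5, which define blood cells and endothelium, had at most 12 counts in any library, while HBB of red blood cells had 0 to 25 and VWF of endothelium 45 to 157. Of the markers of epithelium, blood, endothelium and fibroblasts, KRT14 alone passed the test, with a log2 fold change of -1.31 (edgeR), and the part of any marker in the results was not tested.

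In PRL3 cells 5 of the 10 genes were higher and 1 was lower by the quasi-likelihood test of edgeR on TMM-scaled counts, with the threshold at 0.05 after Benjamini-Hochberg adjustment over every gene tested. The genes that rose, SPRED2, DUSP4, SPRY2, DUSP6 and SPRED1, are all feedback inhibitors, with log2 fold changes from 0.45 to 0.74. ETV4 fell by 1.11 on the log2 scale. In what follows, SE is the standard error of a log2 fold change. SPRY4, ETV5, PHLDA1 and CCND1 did not pass the threshold. Among all genes tested, 20.0% were higher and 22.7% were lower by the same rule, and among the 14443 protein-coding genes 15.2% were higher and 31.6% were lower. Every PRL3 library lay above every EV library for 6 of the 10 genes, against 29.7% of all genes tested, and below for 2, against 26.6%. Among the 14443 protein-coding genes, 3201 lay above and 5307 below in the same way. The median log2 fold change of the 10 genes was 0.37, beside 0.11 for all genes tested and -0.15 for the protein-coding genes, and that of the 6 feedback inhibitors was 0.58. No test was made of the list as a whole. In bulk RNA, more transcription in each cell and more cells that transcribe a gene cannot be told apart. The counts are of exonic reads. The study turned to intronic reads for its later analysis, because splicing during transcription or some carry-over of mRNA could confound exonic ones. Counts per gene cannot separate either from a change in transcription.

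**Figure D1:**
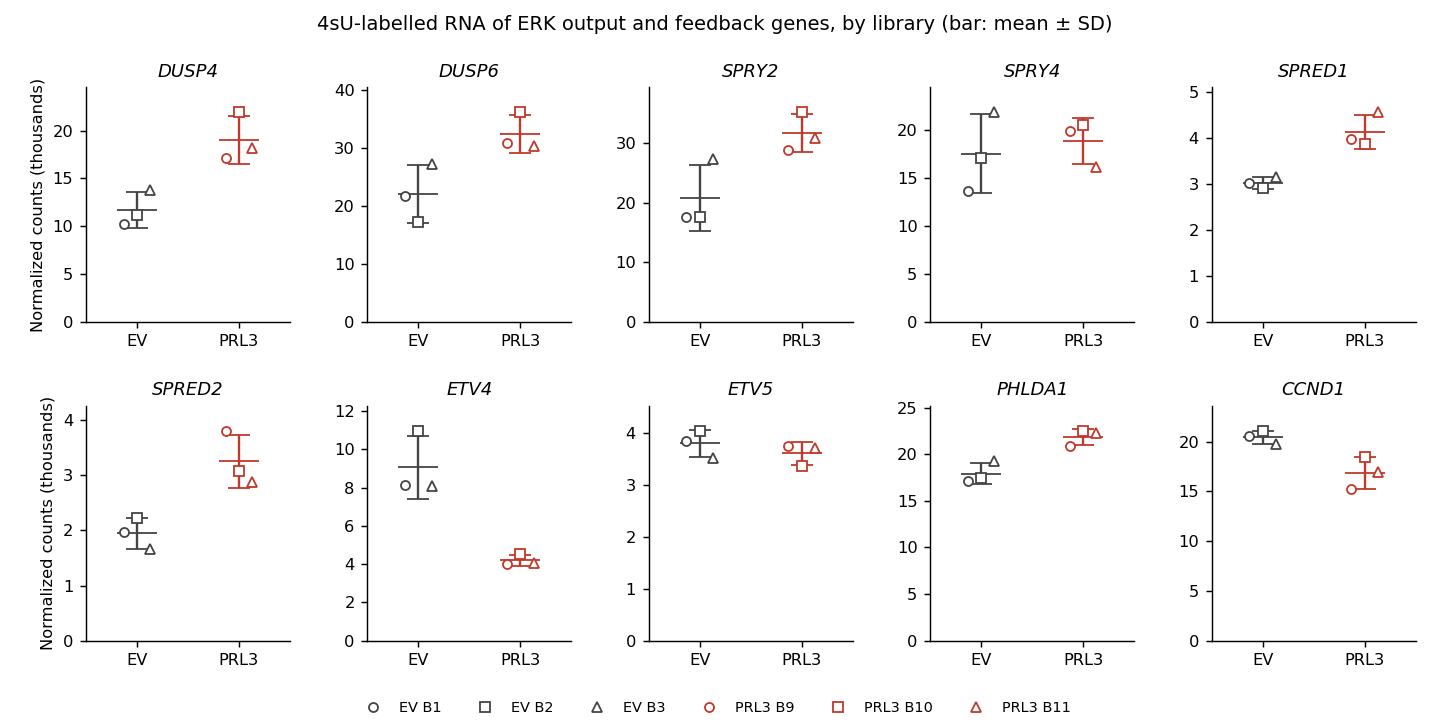
Normalized counts (y axis, from 0) of each of the 10 genes in the 3 EV libraries and the 3 PRL3 libraries (x axis), with bars for the mean ± SD of each group. DUSP4, DUSP6, SPRY2, SPRED1, SPRED2 and PHLDA1 have every PRL3 library above every EV library, ETV4 and CCND1 have every PRL3 library below, and the groups overlap for SPRY4 and ETV5.

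DUSP4, on chromosome 8 from 29333064 to 29350684 on the minus strand (GRCh38), encodes a nuclear phosphatase of ERK. Its normalized counts, which are counts set to a common library size, were 10184, 11160 and 13775 in EV B1, B2 and B3 and 17096, 21897 and 18204 in PRL3 B9, B10 and B11. The lowest PRL3 library was above the highest EV library. The log2 fold change was 0.70 (SE 0.17, edgeR adjusted p = 0.0041), or 1.63-fold. It stayed past the threshold whichever library was left out, with log2 fold changes from 0.60 to 0.83.

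DUSP6, on chromosome 12 from 89347235 to 89352501 on the minus strand, encodes the cytoplasmic phosphatase that is specific for ERK. The EV libraries had 21598, 17159 and 27142 normalized counts and the PRL3 libraries 30785, 36080 and 30254. The groups did not overlap, but EV B3 lay closer to the lowest PRL3 library than to EV B1. DUSP6 rose 1.47-fold, a log2 fold change of 0.56 (SE 0.18, edgeR adjusted p = 0.0231). The call was lost without EV B2, where the log2 fold change was 0.43 and edgeR's adjusted p = 0.0707, and without PRL3 B10, where they were 0.48 and 0.0841.

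SPRY2, on chromosome 13 from 80335976 to 80341126 on the minus strand, had 17685, 17689 and 27308 normalized counts in the EV libraries and 28905, 35203 and 30952 in the PRL3 libraries. As for DUSP6, EV B3 was the highest EV library and stood just under the PRL3 libraries. The log2 fold change was 0.60 (SE 0.19, edgeR adjusted p = 0.0200). Unlike that of DUSP4, this call was lost without EV B1 (edgeR's adjusted p = 0.0598), without EV B2 (0.0600), without PRL3 B10 (0.0724) and without PRL3 B11 (0.0543), with log2 fold changes between 0.50 and 0.63 in these fits.

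SPRY4, on chromosome 5 from 142310427 to 142326455 on the minus strand, was the 1 feedback inhibitor of the 6 that did not pass the threshold. Its normalized counts were 13618, 17056 and 21805 in the EV libraries and 19926, 20535 and 16115 in the PRL3 libraries. The EV libraries spanned the whole range of the PRL3 libraries. The log2 fold change was 0.11 with a standard error of 0.18 (edgeR adjusted p = 0.67), and it was -0.04 without EV B1.

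SPRED1, on chromosome 15 from 38252836 to 38357249 on the plus strand, was read at a lower level, with 3013, 2906 and 3160 normalized counts in the EV libraries and 3971, 3861 and 4553 in the PRL3 libraries. The EV libraries lay close together and all below the PRL3 libraries. SPRED1 rose 1.36-fold, a log2 fold change of 0.45 (SE 0.14, edgeR adjusted p = 0.0225). Without PRL3 B11, its highest library, the log2 fold change was 0.38 and the call was lost (edgeR's adjusted p = 0.119).

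SPRED2, on chromosome 2 from 65310851 to 65432637 on the minus strand, had the highest log2 fold change of the 10 genes. It had 1971, 2226 and 1663 normalized counts in the EV libraries and 3800, 3087 and 2880 in the PRL3 libraries. Here EV B3 was the lowest EV library, unlike for the other feedback inhibitors. The log2 fold change was 0.74 (SE 0.17, edgeR adjusted p = 0.0032), or 1.67-fold, and it stayed past the threshold in each of the fits without 1 library (0.62 to 0.86).

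ETV4, on chromosome 17 from 43527844 to 43579620 on the minus strand, was the 1 gene of the 10 that fell. The EV libraries had 8139, 10944 and 8095 normalized counts and the PRL3 libraries 4012, 4518 and 4063. The lowest EV library was well above the highest PRL3 library, and the PRL3 libraries differed little from each other. ETV4 was 2.16-fold lower in PRL3 cells, a log2 fold change of -1.11 (SE 0.16, edgeR adjusted p = 0.000136). It was lower and past the threshold in all 16 alternatives, with log2 fold changes from -1.59 to -0.61.

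ETV5, the close relative of ETV4, lies on chromosome 3 from 186046314 to 186110318 on the minus strand. Its normalized counts were 3856, 4039 and 3523 in the EV libraries and 3762, 3366 and 3717 in the PRL3 libraries. The ranges of the groups overlapped, and the log2 fold change was -0.07 with a standard error of 0.14 (edgeR adjusted p = 0.71).

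PHLDA1, on chromosome 12 from 76025447 to 76031776 on the minus strand, had 17122, 17407 and 19233 normalized counts in the EV libraries and 20896, 22456 and 22326 in the PRL3 libraries. The groups did not overlap, yet the log2 fold change of 0.29 (SE 0.14) did not pass the threshold (edgeR adjusted p = 0.119). CCND1, on chromosome 11 from 69641156 to 69654474 on the plus strand, had 20575, 21032 and 19732 normalized counts in the EV libraries and 15195, 18407 and 16969 in the PRL3 libraries. All of its PRL3 libraries were below the EV libraries, at a log2 fold change of -0.28 (SE 0.15) that did not pass either (edgeR adjusted p = 0.140). For each of the 8 genes whose groups did not overlap, exact permutation of the normalized counts gave a two-sided p = 0.1, the smallest possible here.

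These values depend on how the libraries are scaled to each other, and the 2 groups differ in the share of reads that fall outside exons. With library size alone, 8 of the 10 genes were higher, the additional ones being SPRY4, PHLDA1 and ETV5, and ETV4 alone was lower. With all uniquely aligned reads as the library size, 0 were higher and 3 were lower, namely ETV4, CCND1 (log2 fold change -0.76) and ETV5 (-0.56). Under that scaling DUSP4 was at 0.24, SPRED2 at 0.25, SPRY2 at 0.14 and DUSP6 at 0.10 on the log2 scale, and SPRED1 (-0.03), PHLDA1 (-0.19) and SPRY4 (-0.36) were below 0. The median of the 10 genes moved from 0.86 with library size alone to -0.11 with all uniquely aligned reads, while that of all genes moved from 0.60 to -0.36. A scaling moves every gene by nearly the same amount, so the difference between both medians was bound to stay nearly the same. It was 0.26 under each of these scalings and under TMM, RLE and upper-quartile scaling. The median of the 10 genes lay 0.52 above that of the protein-coding genes under each. The difference from all genes was 0.20 with limma-voom, 0.14 with genes of any count, 0.36 with 10 counts or more in each library and 0.52 with protein-coding genes alone.

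**Figure D2:**
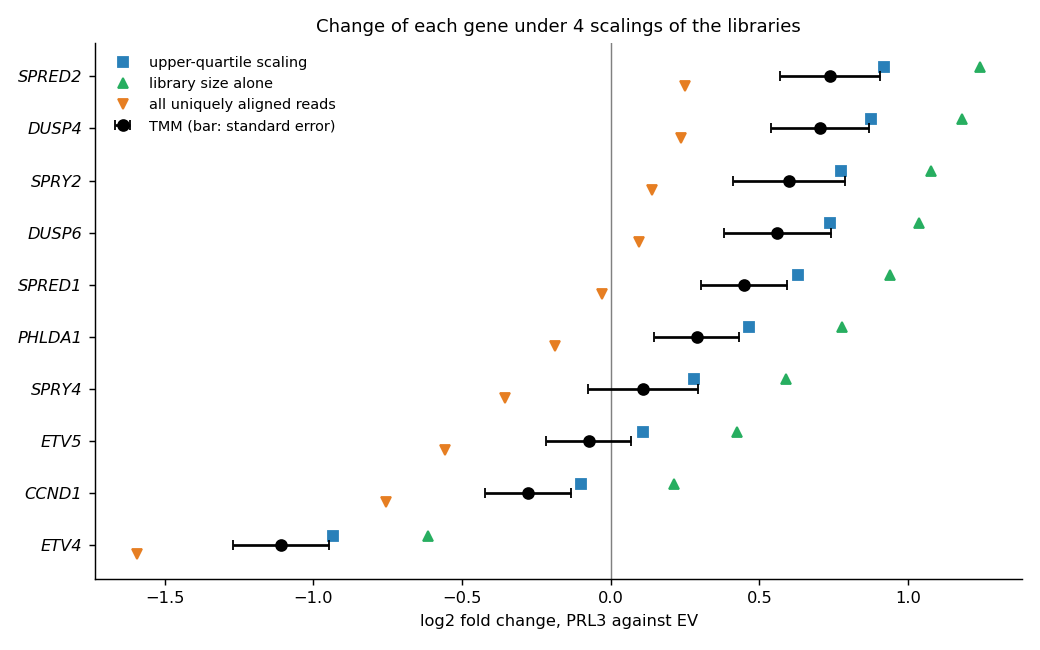
Log2 fold change of PRL3 against EV (x axis) for each gene (y axis) under TMM scaling, with its standard error, and as points under upper-quartile scaling, library size alone and all uniquely aligned reads. ETV4 lies below 0 under each scaling. The whole set moves from the highest values with library size alone to the lowest with all uniquely aligned reads. A scaling moves every gene by nearly the same amount, so the order of the genes stays nearly the same.

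Summed over the 10 genes, the same dependence is seen without any model. As CPM, counts scaled to a fixed total, the genes took 2305 ± 395 of the gene counts in EV libraries and 3919 ± 125 in PRL3 libraries (SD, n = 3 each; the groups did not overlap, two-sided exact permutation p = 0.1). Set against all uniquely aligned reads, they took 1412 ± 84.1 and 1239 ± 136 CPM (SD, n = 3 each; the groups overlapped, two-sided exact permutation p = 0.3). Among the EV libraries B3 had the largest share of reads outside exons, 41.1% beside 30.2% in B1 and 28.7% in B2, and it was the highest EV library for DUSP4, DUSP6, SPRY2, SPRY4, SPRED1 and PHLDA1 and the lowest for the other 4 genes. Without EV B3, 5 genes were higher and 1 was lower, with a median of 0.40. The part of this share in the differences between groups was not tested.

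A ratio of 2 genes within a library does not depend on the scaling, so the close relatives were set against each other by their log2 ratio of counts per kb of exon. ETV4 was above ETV5 by 1.79, 2.15 and 1.92 in EV B1, B2 and B3, and by 0.81, 1.14 and 0.84 in PRL3 B9, B10 and B11. The ratio was thus 3.88-fold in EV cells and 1.91-fold in PRL3 cells, a difference of -1.02 on the log2 scale with no overlap of the groups. SPRY2 was above SPRY4 by 1.41, 1.08 and 1.35 in the EV libraries and by 1.57, 1.81 and 1.97 in the PRL3 libraries. This ratio was higher by 0.50 in PRL3 cells, again without overlap. Both gave p = 0.1 by a two-sided exact permutation test, and 0.2 after Benjamini-Hochberg adjustment over the 4 pairs, so neither can pass 0.05 with these numbers of libraries. The log2 ratio of DUSP4 to DUSP6 was -1.81 ± 0.24 in EV and -1.68 ± 0.07 in PRL3 libraries, and that of SPRED1 to SPRED2 was 0.15 ± 0.27 and -0.14 ± 0.30 (SD, n = 3 each). For both of these pairs the groups overlapped, with exact permutation p-values of 0.4 and 0.3.

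**Figure D3:**
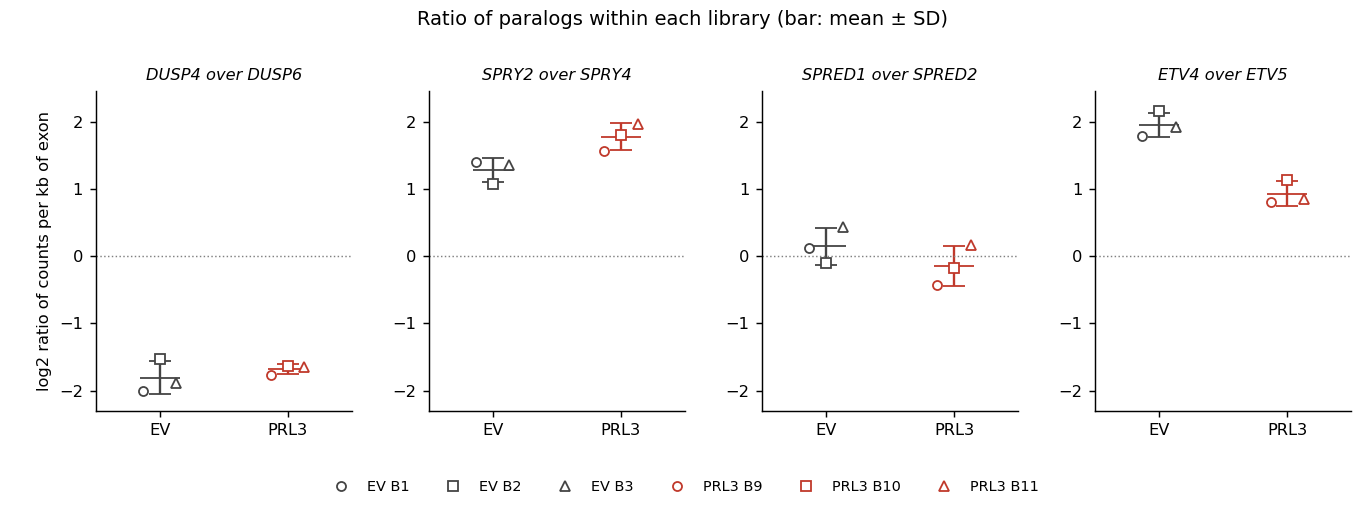
Log2 ratio of counts per kb of exon (y axis) of DUSP4 over DUSP6, SPRY2 over SPRY4, SPRED1 over SPRED2 and ETV4 over ETV5 in each EV and PRL3 library, with bars for the mean ± SD. The PRL3 libraries lie above the EV libraries for SPRY2 over SPRY4 and below them for ETV4 over ETV5, and the groups overlap for the other pairs.

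The levels of the genes relative to each other were compared as TPM, the counts per kb of exon as a share of their sum in the library. In EV cells SPRY2 was highest, at 315 ± 85.4 TPM, followed by DUSP6 at 276 ± 68.6 and CCND1 at 208 ± 9.64 (SD, n = 3). The ranges of these 3 neighbours overlapped one after the other. PHLDA1 (147 ± 11.2 TPM), SPRY4 (129 ± 29.2) and ETV4 (124 ± 16.9) came next and also overlapped in that order, while DUSP4 (77.8 ± 12.2) and ETV5 (31.9 ± 2.12) each stood apart from their neighbours. SPRED1, at 18.9 ± 1.43 TPM, and SPRED2, at 17.1 ± 2.15, were lowest and overlapped. Of the 14443 protein-coding genes, SPRY2 ranked 320 and SPRED2 ranked 5438 in EV cells.

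In PRL3 cells SPRY2 (644 ± 96.1 TPM) and DUSP6 (550 ± 105) were again highest and overlapped, and they stood apart from the rest. PHLDA1 (243 ± 46.4 TPM), CCND1 (231 ± 31.6), SPRY4 (191 ± 56.4) and DUSP4 (171 ± 24.1) followed, each overlapping the next. ETV4, at 78.4 ± 14.9 TPM, ranked below DUSP4, whereas in EV cells it ranked above it. ETV5 (41.7 ± 11.6 TPM), SPRED2 (40.0 ± 15.5) and SPRED1 (35.1 ± 7.80) closed the order, with overlapping ranges. SPRY2 ranked 88 among the protein-coding genes there. TPM values add up to the same total in each library, so these levels are not compared between the groups.

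The genes differ in length, and protein-coding genes of different length did not move alike. Protein-coding genes that span under 10 kb had a median log2 fold change of -0.64 (2782 genes, of which 48.4% were lower and 8.84% higher), those of 10 to 50 kb had -0.26 (6071 genes, 37.1% lower and 14.2% higher) and those of 50 kb and over had 0.07 (5590 genes, 17.4% lower and 19.4% higher). DUSP6 (5.27 kb), SPRY2 (5.15 kb) and PHLDA1 (6.33 kb) are in the shortest class, with log2 fold changes of 0.56, 0.60 and 0.29. DUSP4 (17.6 kb, 0.70), SPRY4 (16.0 kb, 0.11) and CCND1 (13.3 kb, -0.28) are in the middle class. ETV4 (51.8 kb, -1.11) and ETV5 (64.0 kb, -0.07) are in the longest class, where SPRED1 (104 kb) and SPRED2 (122 kb) had 0.45 and 0.74. Of the genes under 50 kb, all but CCND1 were thus above the median of their class, and ETV4 and ETV5 were below theirs.

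**Figure D4:**
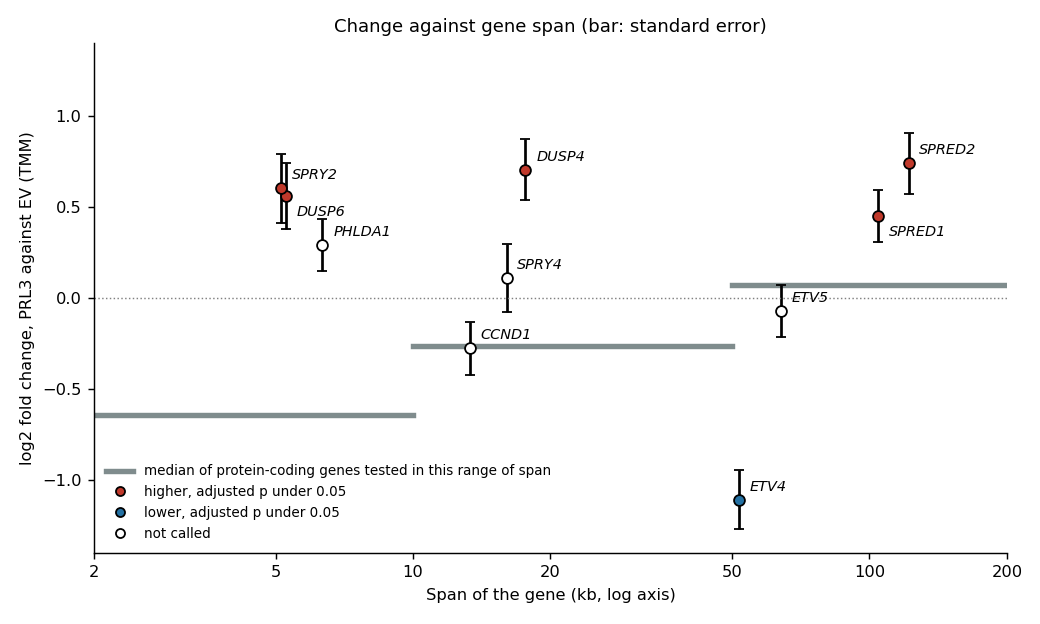
Log2 fold change of PRL3 against EV under TMM scaling, with its standard error (y axis), against the span of the gene in kb (x axis, log scale), with horizontal lines at the medians of the protein-coding genes of each span class. SPRY2, DUSP6 and PHLDA1 lie above the -0.64 of the shortest class, and ETV4 lies below the 0.07 of the longest.

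Genes that overlap the 10 loci were counted apart by strand. An antisense lncRNA within DUSP6 had between 157 and 384 counts in any library, beside at least 14262 for DUSP6. PHLDA1-AS1, also antisense, had at most 157 counts. LTO1, on the strand opposite to CCND1, shares 497 exonic bases with it and rose by 0.58 on the log2 scale (SE 0.15, edgeR adjusted p = 0.0080), while CCND1 had -0.28. With all uniquely aligned reads the LTO1 call was lost (0.11, edgeR adjusted p = 0.644). DHX8, opposite to ETV4 and sharing 68 exonic bases, fell by 0.46 on the log2 scale (SE 0.14, edgeR adjusted p = 0.0194), a call that was lost without EV B2 (0.0590) or PRL3 B11 (0.121) and whose direction turned with library size alone (0.036). ETV5 shares 164 exonic bases with DGKG on the same strand, where reads of both cannot be assigned to either. A lncRNA on the strand of SPRED2 had at most 179 counts, beside at least 1618 for SPRED2, and shares no exonic base with it.

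The other genes of the pathway were taken as named lists and set beside the 10. Among the protein-coding genes tested, 15.2% were higher and 31.6% were lower. Of 14 other ERK-responsive genes, 4 were higher (28.6%), 3 were lower (21.4%) and 7 did not pass the threshold, with a median log2 fold change of 0.16. The highest was DUSP5, an ERK phosphatase of the nucleus, with 3809 ± 1001 normalized counts in EV and 9491 ± 1319 in PRL3 cells (SD, n = 3 each) and a log2 fold change of 1.32 (SE 0.19, edgeR adjusted p = 0.000135). EPHA4, a receptor for ephrins (0.74), the chromatin protein gene HMGA2 (0.63) and ETV1 (0.60), the third PEA3 factor, rose as well, but with all uniquely aligned reads DUSP5 was the 1 gene of the list that was higher. PHLDA2, a relative of PHLDA1, fell the most, with 2458 ± 437 normalized counts in EV and 890.5 ± 81.8 in PRL3 cells and a change of -1.46 on the log2 scale (SE 0.17, edgeR adjusted p = 3.31e-05). The cytokine gene LIF (-0.60) and IER3 (-0.58) fell too, but the call of LIF was lost without PRL3 B9 (edgeR's adjusted p = 0.0629) and that of IER3 without PRL3 B11 (0.0537), and both were lost with library size alone (log2 fold changes -0.11 and -0.09). The Sprouty gene SPRY1 had a log2 fold change of 0.48 that did not pass (edgeR's adjusted p = 0.0598), and passed without EV B3 (0.72, adjusted p = 0.0049). It also passed with upper-quartile scaling (0.65), library size alone (0.95), limma-voom (0.50), protein-coding genes only (0.65) and either other filter (0.50 and 0.52). DUSP7 (log2 fold change 0.12, edgeR's adjusted p = 0.590) and SPRED3 (0.20, 0.321), relatives of the feedback genes among the 10, did not pass either. The rest of the list that did not pass were FOS (0.52), FOSL1 (0.10), EPHA2 (-0.21) and EGR1 (-0.32). Of the called genes that rose, DUSP5 spans 13.6 kb, EPHA4 156 kb, HMGA2 142 kb and ETV1 100 kb. Those that fell, PHLDA2 (1.15 kb), LIF (6.31 kb) and IER3 (1.35 kb), are in the shortest class of span. The part of gene span in these changes was not tested.

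Of 16 genes for the RAS-RAF-MEK-ERK cascade itself, 7 were lower (43.8%) and 1 was higher (6.25%), with a median log2 fold change of -0.32. Among the protein-coding genes 31.6% were lower and 15.2% were higher. The RAS gene HRAS was lowest, at 2540 ± 422 normalized counts in EV and 687 ± 145 in PRL3 cells (SD, n = 3 each), a log2 fold change of -1.88 (SE 0.19, edgeR adjusted p = 1.57e-05). The kinase gene MAPK3 fell by 1.49 on the log2 scale, and of the MEK genes MAP2K1 fell by 1.09 and MAP2K2 by 0.84. ARAF (-0.81) and the SHP2 gene PTPN11 (-0.72) were lower too. HRAS spans 5.08 kb, MAPK3 9.40 kb, ARAF 10.7 kb, MAP2K2 33.8 kb, PTPN11 91.6 kb and MAP2K1 105 kb. Protein-coding genes under 10 kb had a median log2 fold change of -0.64, those of 10 to 50 kb -0.26 and those of 50 kb and over 0.07. The part of gene span in these changes was not tested. With library size alone 3 of the 16 were lower, and ARAF, MAP2K2 and PTPN11 were among those that no longer passed, and with all uniquely aligned reads 11 were lower. BRAF, whose mutant product drives the cascade in this line, had 1865, 1446 and 1659 normalized counts in the EV libraries and 2053, 1822 and 2028 in the PRL3 libraries, with overlapping groups and a log2 fold change of 0.25 (edgeR adjusted p = 0.222). It was called higher with upper-quartile scaling (0.43), protein-coding genes only (0.43) and library size alone (0.74), and was at -0.23 with all uniquely aligned reads. The scaffold gene KSR1 was the 1 that rose (0.54, adjusted p = 0.0478), and only the fit without EV B2 kept this call among those without 1 library, the others giving edgeR's adjusted p from 0.0653 to 0.172. It was also lost with RLE scaling (0.0675), with DESeq2 (adjusted p = 0.0583) and with all uniquely aligned reads (0.840).

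Among 9 negative regulators of RAS and RAF, RASAL2 (390 kb), a RAS GTPase-activating protein, rose by 0.63 on the log2 scale. PEBP1 (9.46 kb), the RAF kinase inhibitor protein (-1.74), and LZTR1 (16.8 kb), an adaptor for RAS ubiquitination (-0.93), fell. The other 6 did not pass the threshold, and the median of the list was -0.03. Of this list 11.1% were higher and 22.2% were lower, beside 15.2% and 31.6% of the protein-coding genes. A list named here cyclin D partners held other D-type cyclins, kinases, inhibitors, RB1 and E2F1. Of its 9 genes 8 were tested, since CCND2 had at most 4 counts in any library. Of these 8, 37.5% were higher and 50% were lower. CDK6, a kinase that cyclin D1 activates, rose from 16200 ± 2076 to 31656 ± 2136 normalized counts (log2 fold change 0.97, SE 0.16, edgeR adjusted p = 0.000285). CDK4, the other such kinase, fell from 25630.4 ± 3202 to 8433 ± 1382 (log2 fold change -1.60, SE 0.17, edgeR adjusted p = 1.76e-05). CDK6 spans 232 kb and CDK4 8.29 kb, in classes of span whose median log2 fold changes were 0.07 and -0.64. The inhibitor genes CDKN2A (0.89, 27.6 kb) and CDKN1B (0.66, 36.9 kb) rose, whereas CDKN1A (-0.86, 10.9 kb), E2F1 (-1.34, 10.9 kb) and CCND3 (-1.04, 115 kb) fell. The part of gene span in the changes of both lists was not tested. The call of CDKN2A was lost without PRL3 B9 (edgeR's adjusted p = 0.0592) or PRL3 B10 (0.0617), and the calls of RASAL2, CDKN1B and CDKN2A were lost with all uniquely aligned reads. The CDKN2A locus encodes p16 and ARF, which the counts do not separate.

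**Figure D5:**
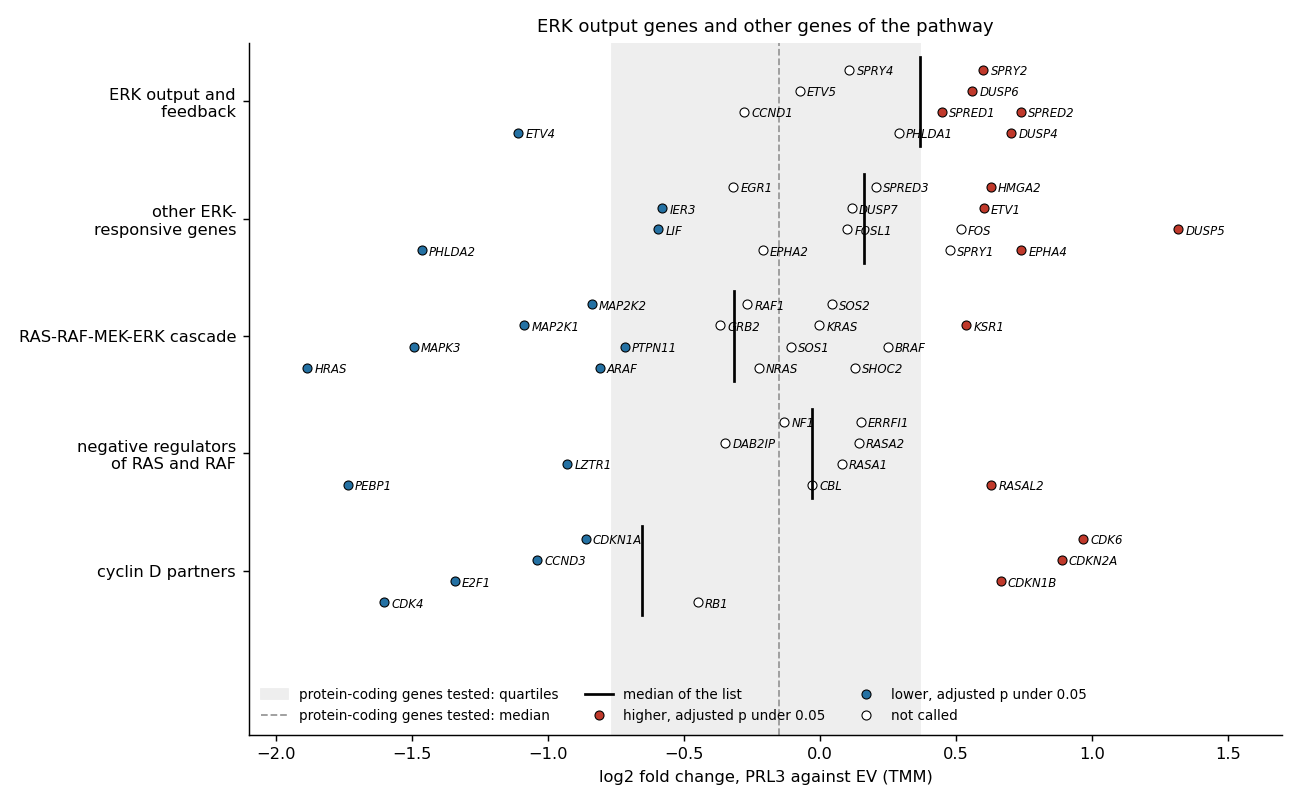
Log2 fold change of PRL3 against EV under TMM scaling (x axis) of genes in the 5 lists (y axis), coloured by call, with the median of each list and the median and quartiles of the protein-coding genes tested. The 10 ERK output and feedback genes have a median of 0.37, beside 0.16 for the other ERK-responsive genes, -0.32 for the cascade, -0.03 for the negative regulators and -0.66 for the cyclin D partners.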

How the data were processed

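The authors' processing notes name FastQC 0.11.3, STAR 2.5.1b with GRCh38 and HTSeq 0.6.1, and the deposited values are raw counts of reads per Ensembl gene on the expected strand of its exons. Symbols, coordinates and exon lengths were added from GENCODE release 44 on the same build (57532 of 58243 identifiers matched). The study names an earlier Ensembl release for its counts. The exons behind TPM, spans and shared bases here can therefore differ from those counted. Lines of the counter that name no gene were left out of library sizes, except where all uniquely aligned reads served as library size. The reads outside exons made up 28.7 to 69.1% of uniquely aligned reads. Depth was 36532207 to 57952035 gene counts per library.

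Groups, taken from the labels, were compared with edgeR 4.0.16 in R 4.3.3: TMM scaling, filterByExpr by group (23884 genes kept), the quasi-likelihood test and Benjamini-Hochberg adjustment over all kept genes at 0.05. Standard errors came from the F statistic. Normalized counts are counts over the effective library size, times its mean. Single values were tested by exact permutation (scipy 1.17.1). The procedure was tested on simulated data. These held no difference between the groups in reads outside exons, so they cannot bear on the choice of scaling. The alternatives changed the scaling (RLE, upper quartile, library size alone, all uniquely aligned reads), the tool (DESeq2 1.42.0, an earlier version of which the study used, or limma-voom with limma 3.58.1), the filter (genes with any count, or with 10 counts or more in each library), the threshold (0.01) or the genes (protein-coding alone), or left out each library in turn. Within groups, any pair of libraries differed beyond sampling noise (chi-square per gene 24.7 or more on average), so each counted as 1 replicate. The 10 genes and the other lists were chosen with earlier results of these data known. The genes named were the 10, PTP4A3 and, from each pathway list, at least the called genes with the lowest and the highest log2 fold change; 1 gene counted in a list is not reported here. LTO1, DHX8 and DGKG were named for their overlap with the 10. Reads by position along genes were not analysed here.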

Additional observations from a re-analysis of the deposited data

Results flagged for a closer look

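Uniquely aligned reads that lay outside the exons annotated on the strand counted enter no gene's count. Their share was 66.3% ± 3.18 for PRL3 and 33.3% ± 6.75 for EV (SD, n = 3 libraries each; two-sided exact permutation p = 0.1, the smallest that 3 libraries against 3 allow). They were flagged because the signal lies outside the counts compared and is above the control level. Where these reads fall cannot be read from counts per gene, and their part in the changes of the 10 ERK output and feedback genes was not tested.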

How the results depend on the processing

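Among the 10 ERK output and feedback genes, the count of higher genes went from 5 to 6 with upper-quartile scaling or protein-coding genes only, where PHLDA1 passed as well (0.47 in both), to 8 with library size alone, 0 with all uniquely aligned reads and 2 at an adjusted p of 0.01, and lay between 3 and 5 when 1 library was left out (3 without EV B2, PRL3 B10 or PRL3 B11). The count of lower genes went from 1 to 3 with all uniquely aligned reads. Their median of 0.37 became 0.86 with library size alone, 0.55 with the upper quartile, 0.55 with protein-coding genes only and -0.11 with all uniquely aligned reads, while the median of all genes in the same fits was 0.60, 0.29, 0.031 and -0.36. Single log2 fold changes that changed sign were those of SPRY4 (-0.36), SPRED1 (-0.031), PHLDA1 (-0.19) and BRAF (-0.23) with all uniquely aligned reads, of CCND1 (0.21), ETV5 (0.43) and DHX8 (0.036) with library size alone, of ETV5 (0.11) with upper-quartile scaling or with protein-coding genes only, and of SPRY4 (-0.042 to 0.29) when 1 library was left out. RLE scaling, DESeq2, limma-voom and both other filters left the 10 genes at 5 higher and 1 lower. Among all genes, 3078 were lower and 9514 higher with library size alone, 8473 lower and 1952 higher with all uniquely aligned reads, and 2719 higher at an adjusted p of 0.01. The protein-coding counts were 2443 and 5328, then 7236 and 582, with 1273 higher at 0.01 and 3445 higher in the fit of protein-coding genes alone. The other ERK-responsive genes went to 1 lower and 9 higher with library size alone and to 5 and 1 with all uniquely aligned reads, the negative regulators to 5 higher and to 5 lower and 0 higher, and the cyclin D partners to 1 higher with all uniquely aligned reads. The cascade had between 0 and 4 higher genes over all alternatives. The log2 ratios of the 4 pairs do not depend on scaling or filter. No paired analysis was possible because EV B1 to B3 and PRL3 B9 to B11 have no number in common. Depth did not limit these genes, the lowest of which had 1618 counts, but 3 libraries a group hold the exact tests at 0.1.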
